A study of Mus musculus with 2 samples.

Results

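The transcripts of 10 naive pluripotency transcription factors were followed in E14 cells, a line of mouse embryonic stem cells (mESCs), after knockdown of USP21. The factors were taken by gene symbol from the deposited tables, which hold 23889 symbols, and all 10 were found: Nanog, Zfp42, Esrrb, Klf2, Klf4, Klf5, Tfcp2l1, Tbx3, Nr0b1 and Prdm14. RNA sequencing was available from 2 libraries. One came from cells of genotype "Normal" transfected with a control shRNA (shCon), and the other from cells labelled USP21 knockdown, transfected with an USP21 shRNA (shUSP21). Both groups are the same line, labelled as derived from a 19/Ola mouse, grown without feeders on gelatin in medium with 15% serum and 1000 U/ml of leukaemia inhibitory factor (LIF), and were harvested 3 days after transfection. The labels do not say which USP21 shRNA was used or whether transfected cells were selected. Neither group has replicates, so a difference cannot be set against replicate error and no test or p-value is given.

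Naive pluripotency is the state of the early epiblast, which LIF helps mESCs to hold in culture. A network of transcription factors keeps it. LIF activates STAT3, which turns on Klf4 and Tfcp2l1, the Wnt branch relieves repression of Esrrb, and these factors bind one another's genes together with Nanog, Oct4 and Sox2. When cells leave the state, the naive factors are lost first, while Oct4 persists and genes of the later epiblast such as Otx2 come on. USP21 is a deubiquitinase that was studied here for its action on the Nanog protein; the libraries measure RNA and not protein.

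Since these factors are known to bind one another's genes, short promoter windows that hold motifs of the network's own factors are shown first. The 250 bases upstream of each RefSeq start (build GRCm38.p6) were searched on both strands. Of the 10 genes, 7 have a promoter in the table used: Nanog, Zfp42, Esrrb, Klf2, Klf4, Tfcp2l1 and Nr0b1. Each window below has 30 bases, written 5′ to 3′ on the strand of the gene, with the matched letters in capitals.
Nanog, octamer core beside a SOX motif: cagcttctTTTGCATtACAATGtccatggt
Nanog, KLF motif: gtgaattcacagggctggtgGGGCGTGGgt
Zfp42, octamer core: ctgaagaggcaTTTGCATaactgagcaaga
Zfp42, overlapping KLF motifs: gcccacatCCCCGCCCACACCCaccttgag
Tfcp2l1, paired KLF motifs: ataaCCACGCCCctaatgCCACGCCCacct
Klf2, paired KLF motifs: gGGGCGGGGcccggccgcggGGGCGGGGct
The windows lie at chr6:122707406-122707435 and chr6:122707459-122707488 (plus strand) for Nanog, at chr8:43307176-43307205 and chr8:43307069-43307098 (minus strand) for Zfp42, at chr1:118627880-118627909 (plus strand) for Tfcp2l1 and at chr8:72318847-72318876 (plus strand) for Klf2. The KLF motif was searched as GGGCGTGG, GGGTGTGG or GGGCGGGG, letters that other GC-box factors also bind. The 7 genes have 9 promoter windows, since Nanog has a pair that overlap and Esrrb a pair that do not. The Nanog pair holds the same matches, so each is counted once per window below. The motif letters were chosen with these promoters in view. The shares over all promoter windows are therefore background only, and no conclusion is drawn from the contrast. The KLF motif was found in 6 of the 9 (those of Nanog, Zfp42, Klf2, Klf4 and Tfcp2l1), and in 21.4% of the 32851 promoter windows of all genes. The octamer core ATGCAAA, which Oct4 recognises, was found in 3 of the 9 (Nanog and Zfp42) and in 4.12% of all promoter windows. A SOX motif (ACAATG or ACAAAG) was found in 3 of the 9 (Nanog and Nr0b1) and in 25.2% of all promoter windows. In Nanog it stood 1 base from the octamer core, 75 to 62 bases upstream of the first annotated start. The ESRRB motif AAGGTCA (4.08% of all promoter windows) and the STAT motif TTCCNGGAA (0.913%) were not present in these 9. A match describes the letters only, and neither library measured binding.

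The deposited values are FPKM, fragments scaled to transcript length and to the size of the library, which compare genes per length. The knockdown was seen in Usp21 itself, with an FPKM of 26.2 (shCon) and 3.49 (shUSP21), 13.3% of control. The FPKM values summed to 613617 and 543206, and steps of single fragments among 1439 genes with FPKM under 0.1 give shCon a depth about 1.23 times that of shUSP21. Markers of other cell types were summed by list. The fibroblast list summed to 18.3 in the shCon library and 6.04 in the shUSP21 library, nearly all of it Thy1 (17.3 and 5.29), and its defining collagen Col1a1 was at 0.801 and 0.560 while Lum was listed at 0 in both. The trophectoderm list of 6 genes summed to 2.75 and 4.58 and the mesoderm list of 6 to 2.14 and 2.30. The primitive endoderm list of 7 summed to 50.2 and 44.0, with Dab2 the highest (23.1 and 16.4), and 4 genes were lower and 3 higher. The neural list of 6 summed to 47.1 and 31.9, most of it Tubb3 (38.5 and 20.4). Of the 4 neural genes that reached an FPKM of 0.1 in either library, 2 were lower and 2 higher. Over all genes that reached it, 49.5% were lower. The part of other cell types in the results below was not tested. In bulk RNA, fewer cells in the naive state and less RNA of a gene in each cell cannot be told apart.

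The factors differed widely in level. In the shCon library the level of Nanog was 37.2 times that of Prdm14 per length, and in the shUSP21 library Zfp42, then the highest, stood 46.4 times above Prdm14. Nanog ranked 176th, Zfp42 212th and Klf5 229th of all 23889 symbols in the shCon library. Esrrb, Klf4 and Tbx3 followed, then Tfcp2l1, Klf2 and Nr0b1, and Prdm14 came last at rank 5749. In the shUSP21 library Zfp42 was first and Nanog second, and Tfcp2l1 stood behind Klf2 and Nr0b1. With 1 library per group, no spread is known by which neighbours in this order could be separated.

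**Figure D1:**
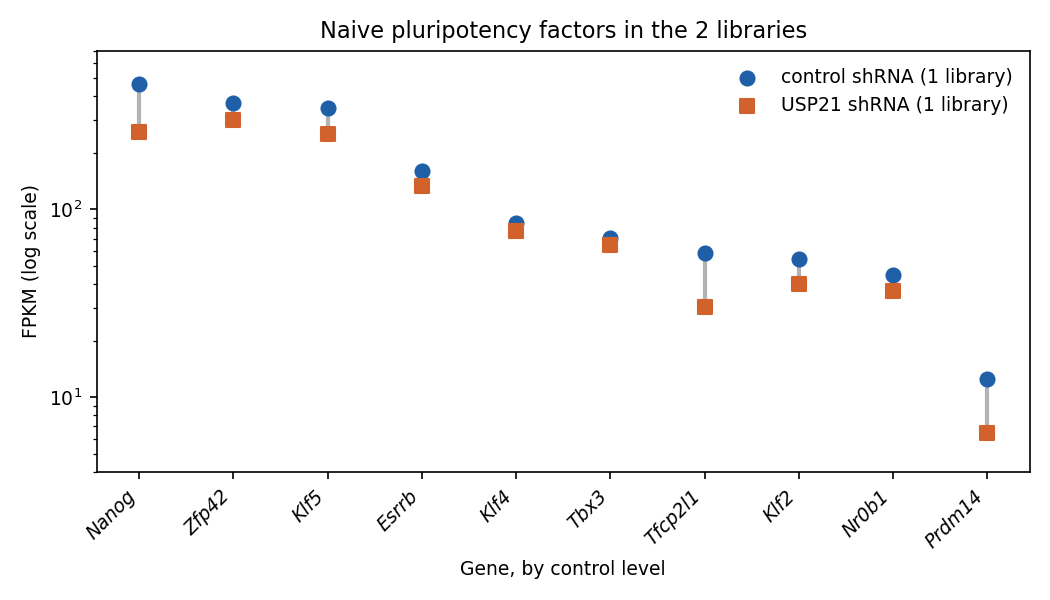
FPKM (log axis) of the 10 factors, ordered by control level, in the shCon library (circles) and the shUSP21 library (squares), 1 library each. All 10 squares lie below their circles as deposited, with the longest gaps at Nanog, Tfcp2l1 and Prdm14; with both libraries at equal summed FPKM, Klf4 and Tbx3 were slightly higher instead.

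As deposited, all 10 factors had a lower FPKM with the USP21 shRNA, where 49.5% of the 15316 genes that reached an FPKM of 0.1 in either library were lower. The median log2 ratio of the 10 was -0.38, against 0.0046 over these 15316 genes. Ratios were formed throughout as log2((shUSP21 FPKM + 0.1)/(shCon FPKM + 0.1)). When the libraries were set to equal summed FPKM, the median of all genes moved to 0.17, Klf4 and Tbx3 changed sign, and 8 of the 10 were lower. Over the 15316 genes 32.0% were lower on that scale. A scaling of whole libraries moves every gene alike, so all 10 lay below the median gene before and after it. None of the 10 was 2-fold lower (3.00% of all genes were) or 2-fold higher (3.40%). At 1.5-fold, a limit set after the values were seen, 3 of the 10 were lower (8.84% of all genes) and none was higher (10.2%). The summed FPKM of the 10 went from 1668 to 1197, 71.7% of control, while the sum over all genes stood at 88.5%.

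Tfcp2l1, Prdm14 and Nanog had the lowest ratios of the 10. Tfcp2l1, a CP2-family factor downstream of LIF and STAT3, had an FPKM of 59.0 in the shCon library and 30.2 in the shUSP21 library, 51.1% of control and a log2 ratio of -0.97. Prdm14, a PR-domain protein that represses DNA methyltransferase genes in the naive state, had 12.6 and 6.46, 51.3% of control and a log2 ratio of -0.95. Nanog, the homeodomain factor that confers LIF-independent self-renewal when raised, had 467 and 258, 55.2% of control and a log2 ratio of -0.86. Few genes had a lower ratio than these: 3.21% of the 15316 genes for Tfcp2l1, 3.33% for Prdm14 and 4.22% for Nanog. Among the 8535 genes with a mean FPKM of at least 5, the shares were 1.01%, 1.03% and 1.38%. As deposited, Nanog alone made up 44.4% of the drop in summed FPKM of the 10 factors, a figure that depends on how the libraries are scaled. Nanog also had the highest FPKM of the 10 in the shCon library. Its share of the summed FPKM, which scaling does not change, went from 28.0% to 21.5%.

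The Krüppel-like factors, zinc-finger proteins that overlap in function in mESCs, divided. Klf5 was at 346 with shCon and 252 with shUSP21, 72.7% of control (log2 ratio -0.46). Klf2, whose protein is destabilised by ERK, was at 54.6 and 40.0, 73.3% of control (log2 ratio -0.45). Klf4, the direct STAT3 target, was at 85.0 and 76.5, 90.0% of control (log2 ratio -0.15, and 0.024 with equal sums). Of the 15316 genes, 12.9% had a lower ratio than Klf5, 13.4% than Klf2 and 33.4% than Klf4, so Klf4 lay nearer the middle of all genes than the other two. Together Klf2, Klf4 and Klf5 held 74.9% of the summed FPKM of the 17 KLF genes in the shCon library and 65.9% in the shUSP21 library.

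The remaining factors are 2 orphan nuclear receptors, a zinc-finger protein and a T-box factor. Zfp42 (Rex1), a zinc-finger protein widely used as a marker of the naive state, had an FPKM of 370 and 299, 81.0% of control (log2 ratio -0.30). Nr0b1 (Dax1), an orphan nuclear receptor without the usual DNA-binding domain that works with Nanog and Oct4, had 44.8 and 36.8, 82.2% of control (log2 ratio -0.28). Esrrb, an orphan nuclear receptor that can stand in for Nanog, had 159 and 133, 83.6% of control (log2 ratio -0.26). These ratios were undercut by 20.9%, 22.3% and 24.0% of the 15316 genes. Tbx3, a T-box factor placed downstream of the PI3K/AKT branch of LIF signalling, had 70.6 and 64.9, 91.9% of control (log2 ratio -0.12, and 0.054 with equal sums), and 36.4% of genes had a lower ratio. Of the 10 factors, 7 held a larger share of their summed FPKM in the shUSP21 library, all but Nanog, Tfcp2l1 and Prdm14, and the share of Zfp42 went from 22.1% to 25.0%.

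**Figure D2:**
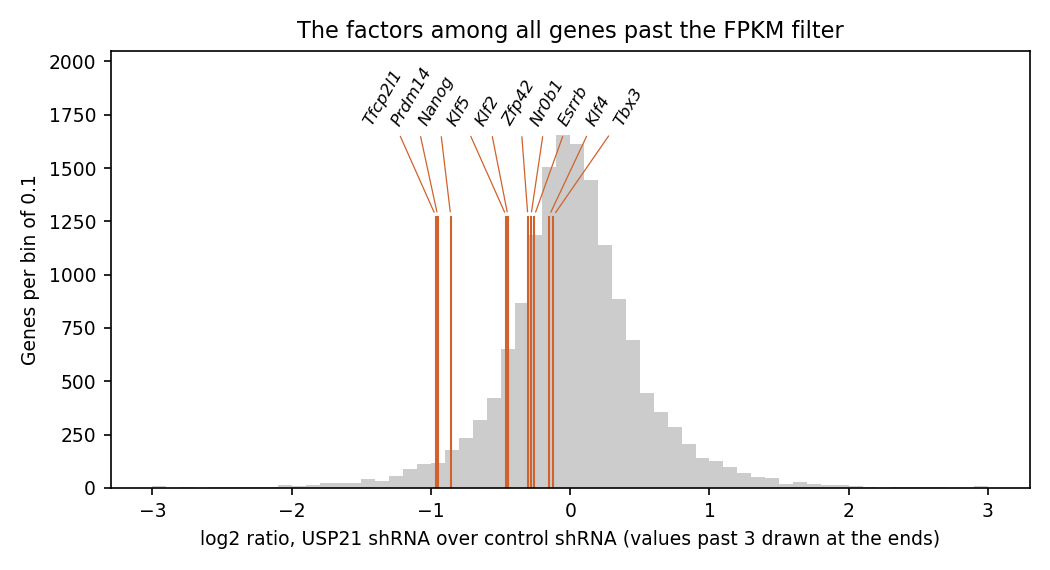
Distribution of the log2 ratio over the 15316 genes past the FPKM filter (grey bars, genes per bin of 0.1), with the 10 factors as vertical lines. Tfcp2l1, Prdm14 and Nanog lie in the lower tail between -0.97 and -0.86, and the other 7 between -0.46 and -0.12; with equal summed FPKM every line moves up by 0.18 or slightly less, which puts Klf4 and Tbx3 above 0.

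Ratios between genes within a library do not depend on how the libraries are scaled. Per unit of Oct4 (Pou5f1, FPKM 868 and 752), Nanog went from 0.538 to 0.343, 63.7% of its control ratio. Tfcp2l1 and Prdm14 per Oct4 were at 59.0% and 59.3% of control, Klf5 at 84.0% and Klf2 at 84.6%. Zfp42, Nr0b1 and Esrrb per Oct4 were at 93.5%, 94.9% and 96.5%, and Klf4 and Tbx3 at 104% and 106%. Set against Sox2 (241 and 218) in place of Oct4, 9 of the 10 were below 100%, with Tbx3 at 101%. These ratios still carry a trend with transcript length, given below. With that trend removed, the log2 ratios of Klf4 (-0.16) and Tbx3 (-0.22) lay below that of Pou5f1 (-0.11). Between members, Nanog was 6.61 times Tbx3 in the shCon library and 3.97 times in the shUSP21 library, and Tfcp2l1 went from 1.08 to 0.753 times Klf2.

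**Figure D3:**
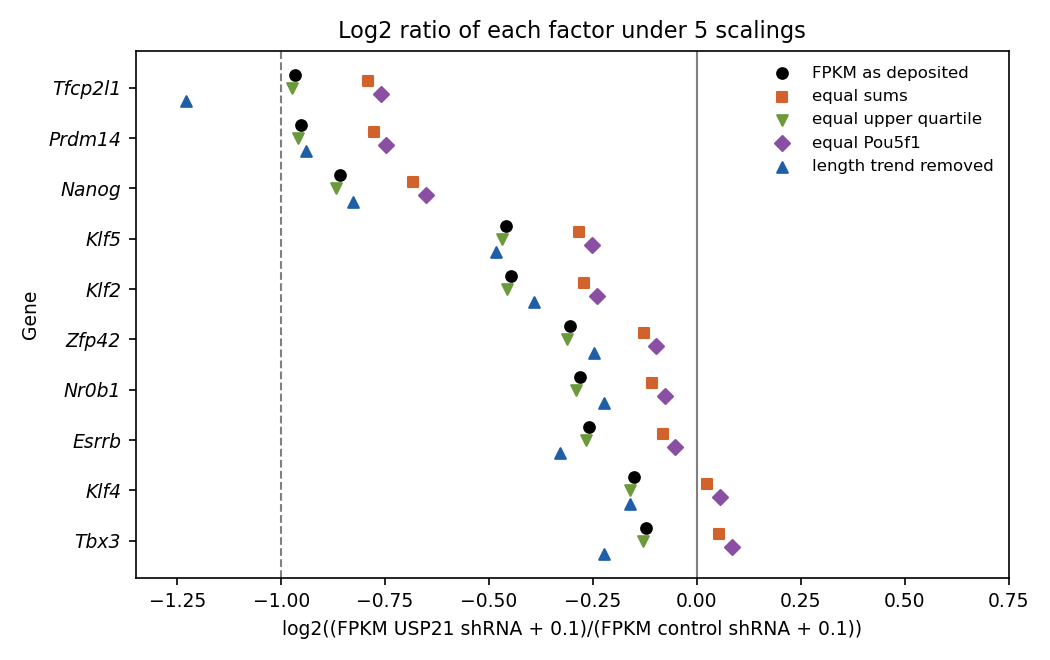
Log2 ratio of each factor (vertical axis, ordered by the deposited value) with FPKM as deposited and under 4 other treatments of the values, 1 library per group. The solid line marks 0 and the dashed line a 2-fold lower value. Tfcp2l1, Prdm14 and Nanog stay at -0.65 or lower in all 5, while Klf4 and Tbx3 cross 0 with equal sums and with equal Pou5f1.

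Ratios over all genes went with transcript length (rho 0.25 by Spearman's method over 14581 genes, and genes are no independent replicates), longer transcripts being higher in the shUSP21 library. The transcripts of the factors run from 1808 bases for Nr0b1 to 9269 for Tfcp2l1. Genes within 0.05 of Tfcp2l1 on the log10 length scale (315 genes) had a median log2 ratio of 0.25, and with the trend removed its log2 ratio was -1.23, past 2-fold. With the trend removed, Prdm14 (2564 bases) was at -0.94 and Nanog (2211 bases) at -0.83, while Tbx3 (4856 bases) was at -0.22 and Klf4 (3029 bases) at -0.16. All 10 were then still below 0, with a median of -0.36. What gives rise to the trend was not tested.

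**Figure D4:**
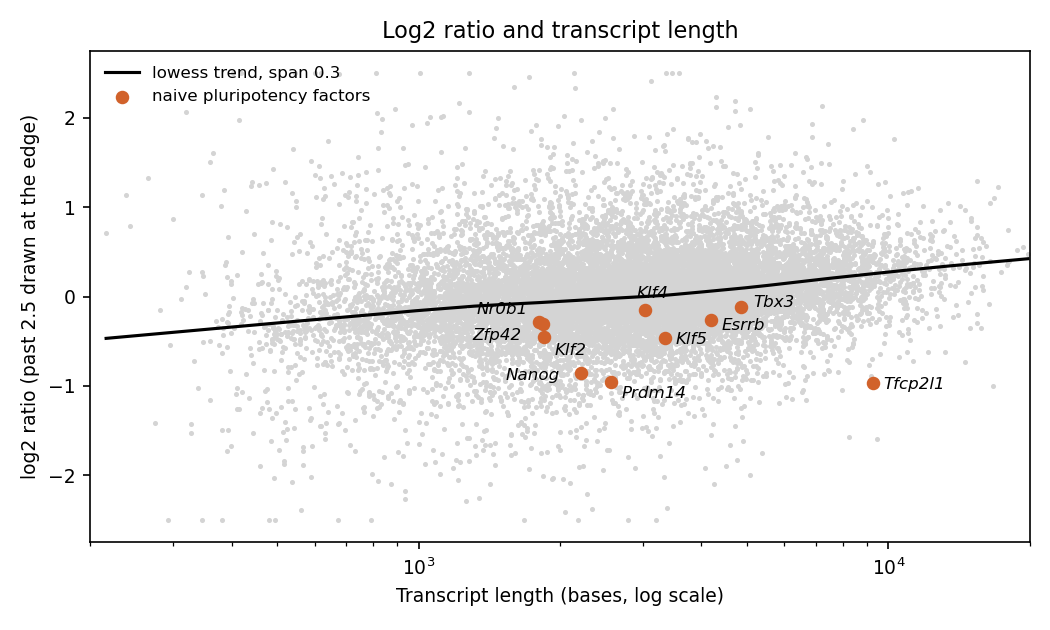
Log2 ratio against transcript length (bases, log axis) for genes past the FPKM filter (grey), with the lowess trend (black) and the 10 factors (orange). Each factor lies below the trend at its own length, Tfcp2l1 farthest; this is on the deposited scale, where Klf4 and Tbx3 are below 0.

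By gene model (GENCODE M21, GRCm38), Nanog lies on chromosome 6 (122707489 to 122714633, plus strand, 4 exons) and Tfcp2l1 on chromosome 1 (118627945 to 118685168, plus strand, 15 exons), where Prdm14 also lies (13113457 to 13127163, minus strand, 8 exons). Klf2 and Zfp42 are both on chromosome 8, Klf4 on chromosome 4, Klf5 on 14, Esrrb on 12, Tbx3 on 5 and Nr0b1 on X. Fragments can be ambiguous where a transcript repeats elsewhere. Of the 31-base words in the Zfp42 transcript, 14.1% also occur in Zfp42-ps1, and of those in Nanog 10.7% occur in other genes, 4.72% in Nanog-ps1. Klf2, Tbx3 and Nr0b1 share no such word with another gene, and for the other 5 factors the share was at most 2.98%. How fragments of shared sequence were assigned is not given in the sources used here.

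The genes around the naive factors were described by lists. Of the 5 core factors, 3 were lower and 2 higher (median log2 ratio -0.13), from Pou5f1 at -0.21 to Sall4 at 0.25 (64.9 and 77.1). None passed 1.5-fold. Of 10 other genes of the naive state, 8 were lower and 2 higher (median -0.19). Over all genes 49.5% were lower as deposited. Tcl1, a coactivator of AKT, had 66.7 and 29.7 (log2 ratio -1.17, and -1.07 with the length trend removed). It was the only one of these 10 past 2-fold as deposited. With equal sums, which raise every ratio by 0.18 or slightly less, it fell just short of 2-fold. Dppa5a, the highest of them, had 1849 and 1285 (log2 ratio -0.52), and Fgf4, the autocrine growth factor, had 54.8 and 74.0 (log2 ratio 0.43). With equal sums, 5 of these 10 and 1 of the 5 core factors were lower, beside 32.0% of all genes.

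Of genes of the formative and primed epiblast, the state that follows, 9 were past the filter. As deposited 6 were higher and 3 lower (median log2 ratio 0.27), where 49.5% of all genes were lower. With equal sums 7 were higher and 2 lower, where 32.0% of all genes were lower. Fgf5 did not reach the filter (FPKM 0.0999 with shCon and 0.0517 with shUSP21). Otx2, the factor that drives exit from the naive state, had an FPKM of 4.42 with shCon and 8.78 with shUSP21 (log2 ratio 0.97). Nanog stood 106 times above Otx2 in the shCon library and 29.3 times in the shUSP21 library. Foxd3 had 22.7 and 18.5 (log2 ratio -0.30), the lowest ratio of that list, and Dnmt3b, its highest gene, 24.5 and 23.9. No gene of the list passed 2-fold in either direction as deposited. Otx2 did with the length trend removed (log2 ratio 1.04), and also with equal sums, which raise every ratio by 0.18 or slightly less.

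Among partners of PRDM14 and the DNA methylation genes it is known to restrain, 3 of 5 were higher and 2 lower, where 49.5% of all genes were lower. With equal sums 4 were higher and 1 lower, where 32.0% of all genes were lower. The median log2 ratio was 0.11 as deposited and -0.050 with the length trend removed. Dnmt3l, the cofactor of the de novo methyltransferases, had an FPKM of 62.1 in the shCon library and 201 in the shUSP21 library. Its log2 ratio was 1.69, the only one of the list past 2-fold as deposited. Dnmt3a, named after its values were seen, had 19.4 and 36.5 (log2 ratio 0.91, and 0.63 with the length trend removed). With equal sums, which raise every ratio by 0.18 or slightly less, Dnmt3a also passed 2-fold. The Polycomb subunits Suz12 (88.5 and 86.1) and Ezh2 (53.1 and 45.7) had log2 ratios of -0.038 and -0.22. Dnmt3b, a de novo methyltransferase that PRDM14 also restrains and that stood in the epiblast list, had nearly the same level in both libraries (log2 ratio -0.037). Prdm14 itself was lower, as given above. Whether these values are linked was not tested.

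Of the inputs to the network, the LIF to STAT3 list was divided, with 4 of 8 genes higher and 4 lower as deposited. With equal sums 7 were higher, where 32.0% of all genes were lower. The median log2 ratio of the list was 0.12 as deposited, and -0.016 with the length trend removed. Il6st, the shared signalling receptor gp130, had 13.3 and 20.5 (log2 ratio 0.61, and 0.37 with the length trend removed). Lif had 2.97 and 2.60 (log2 ratio -0.19), and the kinase gene Pim3, the highest of the list in the shCon library, 56.9 and 52.1. Among 7 genes of the β-catenin and GSK3 input the ratios stayed between -0.23 (Axin2, a Wnt target) and 0.20 (Gsk3b), and Ctnnb1, which encodes β-catenin, was at 312 and 283. Of 8 genes with a part in exit from the naive state, for or against it, 7 were higher and 1 lower. Over all genes 49.5% were lower as deposited. With equal sums all 8 were higher. The median log2 ratio was 0.21 as deposited, and 0.13 with the length trend removed. With that trend removed Etv5 (-0.025) and Flcn (-0.18) were below 0, and the others stayed above it. Rbpj, the Notch effector, had 89.8 and 143 (log2 ratio 0.68), Etv5, the highest in the shCon library, 137.1 and 139 and the folliculin gene Flcn 25.2 and 22.7 (log2 ratio -0.15). None of the genes of these 3 lists passed 2-fold.

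**Figure D5:**
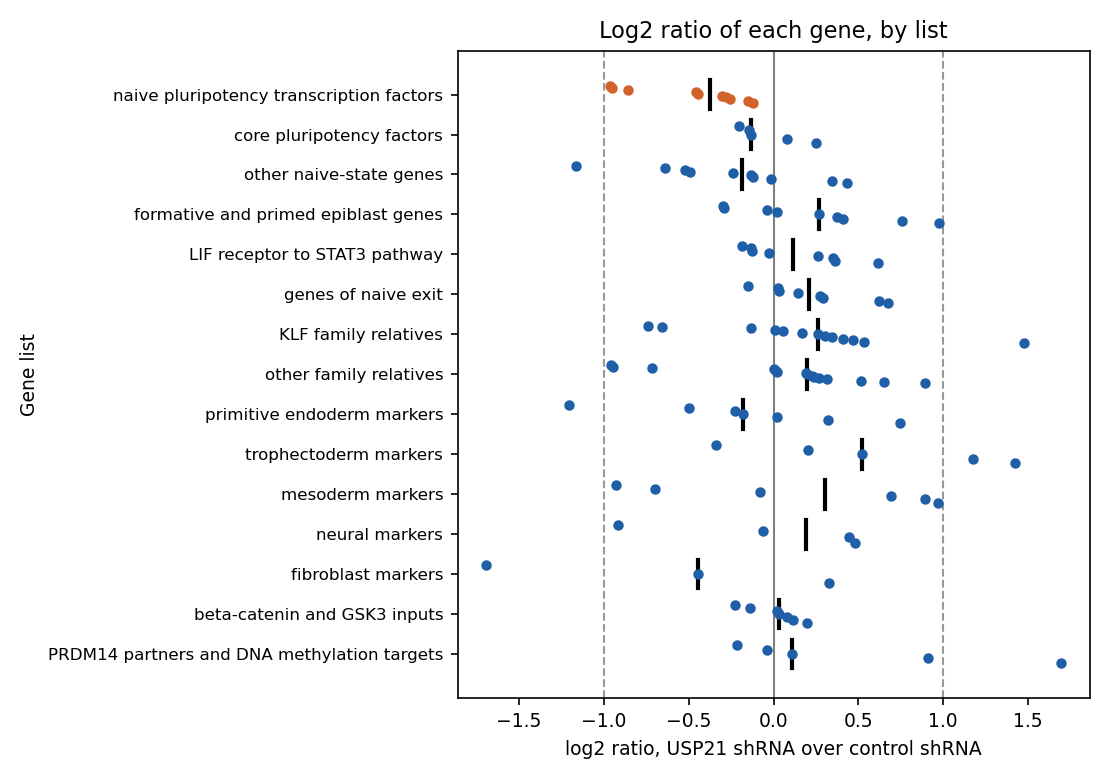
Log2 ratio of each gene past the FPKM filter, by list, with the naive factors in orange, the median of each list as a black bar, the median of all genes as the grey line and 2-fold limits dashed. All 10 naive factors lie below the median of all genes (with equal sums, Klf4 and Tbx3 are above 0 and still below that median), and Dnmt3l at 1.69 is the highest point.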

How the data were processed

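The authors deposited gene expression as FPKM, 1 value for each symbol in each of 2 libraries (1 per group). Submitters' processing notes name CASAVA 1.8.2, TopHat2 2.0.14, Cufflinks 2.2.1 and mm9, with no role or order; the gene annotation is not given in the sources used here. The files give no counts, so no interval, count model or test was computed and depth is known only as a ratio between libraries. Genes that reached an FPKM of 0.1 in either library were kept, and ratios were taken after adding 0.1, which understates changes of low genes. Lengths came from GENCODE M21 (basic annotation, 1 transcript per symbol, longest coding sequence), found for 95.2% of genes kept; a lowess with span 0.3 removed the length trend in an alternative. Motif letters were chosen with these promoters in view. Members and lists were chosen with earlier results of these data known. Named genes were the 10 members, Usp21 and, of each list, the highest in the control library, the lowest and highest ratio and any past 2-fold. Not every one is given, and Sox2, Col1a1, Lum, Dnmt3a and Fgf5 were named outside this rule. Alternatives were pseudocounts of 1 and 0.01, equal sums, median centring, equal upper quartile, no filter or FPKM 1, and, added after the data were seen, equal Pou5f1, a mean FPKM of at least 5 and a limit of 1.5-fold. The ratio and the length step were tested on simulated data. Python 3.11.15, pandas 2.3.3, numpy 2.4.6, statsmodels 0.14.6, scipy 1.17.1 and matplotlib 3.10.9 were used.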

Additional observations from a re-analysis of the deposited data

How the results depend on the processing

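Each value rests on 1 library per group, so variation between cultures or library preparations cannot be told apart from the effect of the shRNA, and leaving out a replicate was not possible. No paired analysis was possible because each group holds 1 library. All 10 factors lay below the median gene with other pseudocounts and filters and with the length trend removed; scaling whole libraries cannot change this count. Without replicates, a shift of over 0.1 on the log2 scale was taken as a move; of 70 values of single factors under the alternatives, 48 moved less, 18 moved more and 4 changed sign. With equal sums the median log2 ratio of the 10 was -0.20, Klf4 was at 0.024 and Tbx3 at 0.054. With equal Pou5f1 the median was -0.17, Klf4 was at 0.054 and Tbx3 at 0.085. The count of factors past 2-fold was 1 with the length trend removed, by the construction of that correction, and 3 with a limit of 1.5-fold, against 0 as deposited.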

Other observations

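Relatives of the naive factors from the same families were also measured. Of 13 other KLF genes past the FPKM filter, 10 were higher with the USP21 shRNA and 3 lower. These counts held as deposited (49.5% of all genes lower) and with equal sums (32.0% of all genes lower). Their median log2 ratio was 0.26 as deposited, and 0.18 with the length trend removed. Klf12, a repressor of the family, had an FPKM of 3.42 with shCon and 9.68 with shUSP21, a log2 ratio of 1.47 and the only one past 2-fold. Klf9, the highest in the shCon library, had 33.9 and 40.8, and Klf8 had 8.25 and 4.89, the lowest log2 ratio at -0.74.

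Of 15 relatives of Esrrb, Tfcp2l1, Nr0b1, Tbx3, Zfp42 and Prdm14 past the filter, 12 were higher and 3 lower on both scales. Over all genes 49.5% were lower as deposited and 32.0% with equal sums. The median log2 ratio was 0.19 as deposited, and 0.14 with the length trend removed. Yy1, the relative of Zfp42 with the highest level, had 36.5 in both libraries. Prdm1, which has the lowest log2 ratio of these at -0.96, was at 0.820 and 0.374, and Tbx6, with the highest at 0.89, at 0.282 and 0.609, levels far under those of the naive factors. In the marker lists, the fibroblast-list gene Thy1 passed 2-fold downward (17.3 and 5.29), 2 trophectoderm genes passed 2-fold upward at low level, Hand1 (0.403 and 1.25) and Gata3 (0.547 and 1.36), and the primitive endoderm gene Sox7 passed it downward (4.68 and 1.97).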
